A study of Mus musculus with 12 samples.

Results

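The promoters examined were those of liver from vehicle-treated, fasted control mice, as 4 ATAC-seq libraries of 12 in the study. All 43511 promoter entries counted in these libraries were members, and no treatment contrast was used to choose or rank them. Counts were divided by the library's promoter total and expressed as counts per 1000000 (CPM), averaged over the 4 libraries, and reduced to the entry of highest mean for each of 25124 gene symbols. A promoter's level is thus its share of the promoter counts, and its percentile is its rank by mean CPM among the 25124 symbols. The edges of the highest 10% and the lowest 10% of symbols lay at 49.83 and 3.05 CPM, with the next promoters at 49.82 and 3.05 CPM, so neither edge is a gap in the data.

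The study asked how atorvastatin and pregnenolone 16α-carbonitrile (PCN) act on the mouse liver in relation to the pregnane X receptor, a nuclear receptor that controls drug metabolism. The other 8 libraries came from mice given either compound and are not described. The controls were chow-fed males of the C57Bl/6N strain with a wild-type genotype, 19 to 20 weeks old. They were gavaged with distilled water on 4 days and fasted for 12 h, so the values describe fasted liver, with no fed group beside it. The labels do not say that each library came from a separate mouse, and the spread over libraries may therefore be technical in part.

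In ATAC-seq a transposase inserts sequencing adapters into DNA that is not wrapped in nucleosomes, and the number of fragments over a promoter measures how accessible it is. Accessibility is not transcription: a promoter can be open and poised, and an expressed gene can be driven largely from distal enhancers. Many housekeeping and regulatory genes start in CpG islands, stretches rich in CG dinucleotides that tend to stay free of nucleosomes in most cells. Hepatocytes, the main cell type of the liver, make plasma proteins, glucose, urea and bile acids, and many of their own genes start instead in CpG-poor DNA bound by liver factors such as HNF1, HNF4, FOXA and C/EBP proteins.

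The promoters below show the contrasts that the landscape turned on. Each runs 5′ to 3′ on its gene's strand, from 250 bases before to 50 bases after the RefSeq start in GRCm38.p6, with CG dinucleotides in capitals and all else in lower case. Sp1 (chr15:102406066-102406365, plus strand) and Nr1d2 (chr14:18239057-18239356, minus strand) are open promoters with 19 and 20 CG. Alb (chr5:90460620-90460919, plus strand) and Apoa1 (chr9:46228380-46228679, plus strand) are hepatocyte promoters with 3 and 4. En1 (chr1:120602237-120602536, plus strand) is a developmental gene with 23, the least open CpG-rich promoter of the developmental transcription factor list. Olfr1289 (chr2:111483182-111483481, plus strand), with 1 CG, lies closest to the median of the olfactory receptors that have a sequence.
Sp1 promoter: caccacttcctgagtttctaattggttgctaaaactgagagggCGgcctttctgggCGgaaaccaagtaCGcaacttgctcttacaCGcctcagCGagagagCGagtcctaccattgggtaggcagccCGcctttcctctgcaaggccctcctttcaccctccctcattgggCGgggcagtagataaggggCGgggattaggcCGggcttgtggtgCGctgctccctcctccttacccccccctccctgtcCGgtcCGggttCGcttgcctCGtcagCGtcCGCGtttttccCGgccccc
Nr1d2 promoter: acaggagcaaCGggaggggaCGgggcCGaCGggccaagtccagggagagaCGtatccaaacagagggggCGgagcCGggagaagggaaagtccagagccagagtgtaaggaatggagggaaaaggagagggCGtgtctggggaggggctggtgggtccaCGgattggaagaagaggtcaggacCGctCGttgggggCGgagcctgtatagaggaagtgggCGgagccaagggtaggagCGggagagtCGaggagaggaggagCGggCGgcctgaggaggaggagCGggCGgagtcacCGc
Alb promoter: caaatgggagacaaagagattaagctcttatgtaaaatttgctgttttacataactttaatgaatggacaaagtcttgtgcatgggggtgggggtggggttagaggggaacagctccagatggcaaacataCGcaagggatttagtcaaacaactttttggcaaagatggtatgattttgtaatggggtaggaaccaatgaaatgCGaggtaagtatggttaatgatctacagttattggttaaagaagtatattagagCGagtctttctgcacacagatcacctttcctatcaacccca
Apoa1 promoter: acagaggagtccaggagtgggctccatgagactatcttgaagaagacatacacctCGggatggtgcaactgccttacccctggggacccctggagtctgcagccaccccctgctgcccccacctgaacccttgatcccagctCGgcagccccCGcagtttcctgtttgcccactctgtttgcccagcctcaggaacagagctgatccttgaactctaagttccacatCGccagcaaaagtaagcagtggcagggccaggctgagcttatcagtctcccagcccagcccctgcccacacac
En1 promoter: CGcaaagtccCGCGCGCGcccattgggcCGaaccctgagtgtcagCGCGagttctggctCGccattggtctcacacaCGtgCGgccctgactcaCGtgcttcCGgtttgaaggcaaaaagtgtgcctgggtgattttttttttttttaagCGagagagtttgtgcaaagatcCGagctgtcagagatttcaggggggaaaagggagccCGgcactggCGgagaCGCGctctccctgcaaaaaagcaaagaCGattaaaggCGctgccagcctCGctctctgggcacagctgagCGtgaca
Olfr1289 promoter: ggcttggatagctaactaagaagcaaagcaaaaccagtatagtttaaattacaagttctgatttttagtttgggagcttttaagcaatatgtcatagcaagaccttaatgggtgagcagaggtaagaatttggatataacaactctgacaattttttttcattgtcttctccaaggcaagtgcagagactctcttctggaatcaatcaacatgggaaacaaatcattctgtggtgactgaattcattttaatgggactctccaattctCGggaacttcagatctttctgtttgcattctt

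The 2 CpG-rich open promoters were far above the others. Sp1, which encodes a factor that binds GC boxes, had 106, 203, 187 and 179 CPM in controls 1 to 4 (169 ± 43.2, SD, n = 4). Nr1d2, which encodes the clock repressor REV-ERBβ, had 103, 118, 152 and 148 CPM (130 ± 23.6). En1, a homeobox gene of the embryonic brain and limb, had 8.96, 6.87, 0 and 3.57 CPM (4.85 ± 3.92), although its CG count exceeds that of both. Olfr1289 had 5.29, 6.07, 0 and 1.19 CPM (3.14 ± 2.99). Sp1 and Nr1d2 were above En1 and Olfr1289 in every library, but all were chosen after their values were seen, so this gap follows from the choice.

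The control libraries differed in depth and in contrast, which bears on every value here. Their promoter totals were 10493197, 6263142.5, 2368263 and 1679054 counts for controls 1 to 4. Control 3 stood apart: its log2(CPM + 1) values correlated with those of the other libraries at r = 0.707 to 0.762 across promoters, against 0.908 to 0.968 among the other 3. It held 0 counts at 11.0% of symbols, against 0.474%, 0.824% and 6.36% in controls 1, 2 and 4. With every library thinned to 1679054 counts these shares were 0.808%, 1.11%, 11.2% and 6.37%. Thinning drew units of 0.5 count, which may leave fewer symbols at 0 than drawing whole counts. What sets these shares was not tested. The ratio of the median ribosomal protein promoter to the median olfactory receptor promoter, an open and a closed class, was 7.32, 10.3, 13.2 and 18.1 in controls 1 to 4. Its part in the spread of other values was not tested. A design of 1 group with 4 libraries carries no test here, since a sign-flip test over 4 libraries gives at best 1 in 8 as its p.

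**Figure D1:**
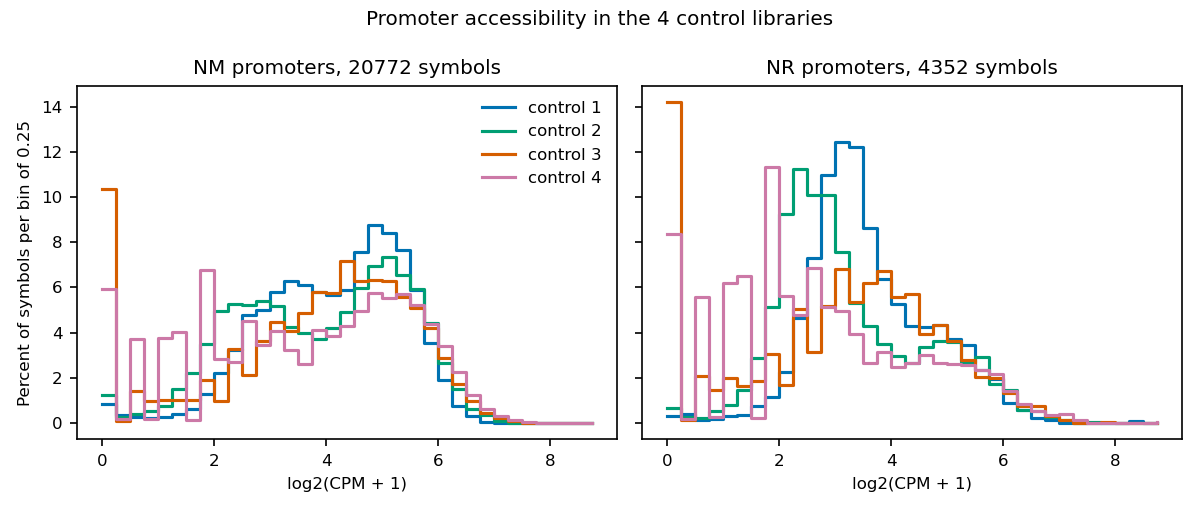
Share of symbols (vertical axis, percent per bin of 0.25) by accessibility as log2(CPM + 1) (horizontal axis) in the 4 control libraries, for 20772 NM promoters (left) and 4352 NR promoters (right). Each line is 1 library; control 3 has the tallest bar at 0, and the NR promoters gather at lower values than the NM promoters.

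Promoter counts, which include those at closed promoters, were spread over many promoters rather than held by a few. The median promoter had 16.1, 13.1, 14.8 and 10.7 CPM in controls 1 to 4 (13.7 ± 2.31). The most open 1% of symbols held 4.31%, 5.34%, 5.92% and 6.38% of the counts (5.49 ± 0.892%), and the most open 10% held 27.6%, 32.1%, 33.9% and 37.1% (32.7 ± 3.97%). In control 1, the deepest library, the counts were spread most evenly by both measures. The less open 50% of symbols held 18.66%, 13.03%, 12.99% and 8.27%. Only 99 symbols (0.394%) had 0 counts in all 4 libraries, of which 47 were Gm models and 13 vomeronasal receptors, many of them near-identical copies whose reads may not be assigned. For such a promoter 3 counts over the group total, 0.144 CPM, is the limit that a count of 0 allows, and these limits cover counting error only. The set of open promoters was steadier than the set of closed ones: without control 3, 2253 (89.7%) of the highest 10% and 1929 (76.8%) of the lowest 10% stayed in place.

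The 20 highest NM symbols had means from 131 to 220 CPM. They included the Krüppel-like factors Klf10 and Klf13, the GC-box factors Sp1 and Sp4, Midn (midnolin), Gsk3b (the kinase GSK3β), Mnt (a MAX partner), Zfpm1 (a GATA cofactor), Ing1 (a chromatin reader) and Foxo3 (a forkhead factor of the insulin pathway). Others among the 20 were Dnpep, Khsrp, Cdca2, Kctd9, Ube2d3, Kpnb1 and Fkbp2. Klf10 had 146, 198, 231 and 255 CPM (207 ± 47.4). Klf13 had 141, 150, 196 and 159 CPM (161 ± 24.1), and Foxo3 101, 129, 130 and 163 CPM (131 ± 25.04). All 3 were above the 99th percentile. The highest NM value, 220 ± 149 CPM for Sfi1, came mainly from control 3: its libraries read 220, 135, 430 and 95.0 CPM. Hjurp, a centromere chaperone gene, followed Klf10 with 214, 219, 141 and 211 CPM. Of the 20, 17 remained among the highest 20 without control 3. Just outside lay Nr1d2 at 130 CPM and the alanine aminotransferase gene Gpt at 128 CPM, against 131 CPM for Foxo3 just inside.

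Several of the highest entries cannot be read as single genes. The most open symbol of all, Pisd-ps1, is a pseudogene copy with 336, 430, 381 and 448 CPM (399 ± 50.3). Its annotated body lies beside Sfi1 on chromosome 11. The ribosomal RNA precursor Rn45s had 193, 180, 227 and 434 CPM. Both are near-identical to other copies in the genome, and how the authors' counting treated such reads is not given in the sources used here. Among the 100 most open symbols, 25 pairs had gene bodies within 1000 bp of each other, and in 20 of these pairs the values differed by at most 10% in every library. These pairs involve 37 symbols. Examples are Gsk3b with the noncoding BC031361, Cdca2 with Kctd9, and Ube2d3 with 4930539J05Rik. Such neighbours may share a promoter region, and their counts may not be separate measurements.

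By RefSeq prefix, NM entries (protein-coding transcripts) were more open than NR entries (noncoding transcripts). Their medians of mean CPM were 16.4 and 7.71 CPM. The difference in median log2(CPM + 1) was 0.86, 1.17, 0.76 and 1.35 in controls 1 to 4 (1.04 ± 0.27), above 0 in 4 of 4 libraries and 1.13 without control 3. Of 20772 NM symbols 2277 (11.0%) lay in the highest 10%, and of 4352 NR symbols 236 (5.42%). In the lowest 10% lay 2020 (9.72%) and 492 (11.3%), so the prefixes differed more at the open end than at the closed end.

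The NR class was itself mixed. NR entries of protein-coding genes had a median of 26.6 CPM (109 symbols) and small nucleolar RNAs 14.1 CPM (121). Long noncoding RNAs had 7.87 CPM (2494), microRNAs 7.64 CPM (1226) and transcribed pseudogenes 5.11 CPM (352). Position separated them further. Long noncoding RNAs that start within 1000 bp of a coding start had a median of 29.9 CPM (414), and those farther away 6.80 CPM (1600). In controls 1 to 4 the near ones read 29.5, 30.9, 28.2 and 28.3 CPM and the far ones 8.62, 5.59, 8.02 and 3.57 CPM, with no overlap. For microRNAs, placed by the nearer end of the annotated gene, the medians were 36.4 CPM near (79) and 7.22 CPM far (1113). In the highest 10% of all symbols lay 23.7% of the near long noncoding RNAs and 2.31% of the far ones, and 30.4% and 1.35% of the microRNAs. The 1140 symbols that have both kinds of entry had an equal mean CPM in both for 795, a more open NM entry for 247 and a more open NR entry for 98.

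The 4 hepatocyte markers were all above the median promoter by mean CPM, and 1 of them, Apoa1, was in the highest 10%. Apoa1, the main protein of high-density lipoprotein, had 52.7, 85.6, 65.0 and 63.7 CPM (66.7 ± 13.7, 96.2nd percentile). Ttr (transthyretin) had 28.3, 36.7, 15.2 and 41.1 CPM (30.3 ± 11.4). Alb (albumin) had 23.2, 33.8, 3.38 and 47.1 CPM (26.9 ± 18.5, 68.8th percentile), and control 3 lay far below the others. Cps1, the first enzyme of the urea cycle, had 17.9, 20.0, 16.0 and 18.5 CPM (18.1 ± 1.62), the narrowest spread of the 4. All 4 markers were thus above the library's own median in controls 1, 2 and 4. In control 3 Apoa1 was far above that library's median of 14.8 CPM, Cps1 and Ttr were slightly above it, and Alb was below it.

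Of the 35 hepatocyte core genes, which encode plasma proteins and other main hepatocyte products, all 35 lay above the median of all symbols by mean CPM, 7 (20.0%) in the highest 10% and 0 in the lowest 10%. The list's median was 35.6, 40.8, 22.8 and 48.2 CPM in controls 1 to 4 (36.9 ± 10.7), or 1.33 ± 0.63 above that of all symbols on the log2(CPM + 1) scale. Apolipoprotein genes led: Apoa2 had 91.7, 110, 68.4 and 115 CPM (96.3 ± 21.1) and Apoe 52.2, 71.0, 57.8 and 98.0 CPM (69.7 ± 20.4). These levels depend on the entry: the lowest entries of Apoa2 and Apoe had means of 50.6 and 43.2 CPM. With the lowest entry taken for every symbol, they lay at the 91.4th and 87.2nd percentile. At the other end was Fgb, the fibrinogen β chain gene, with 18.4, 22.4, 0 and 29.2 CPM (17.5 ± 12.5). Control 4 was the highest library for 22 of the 35 and control 3 the lowest for 25.

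**Figure D2:**
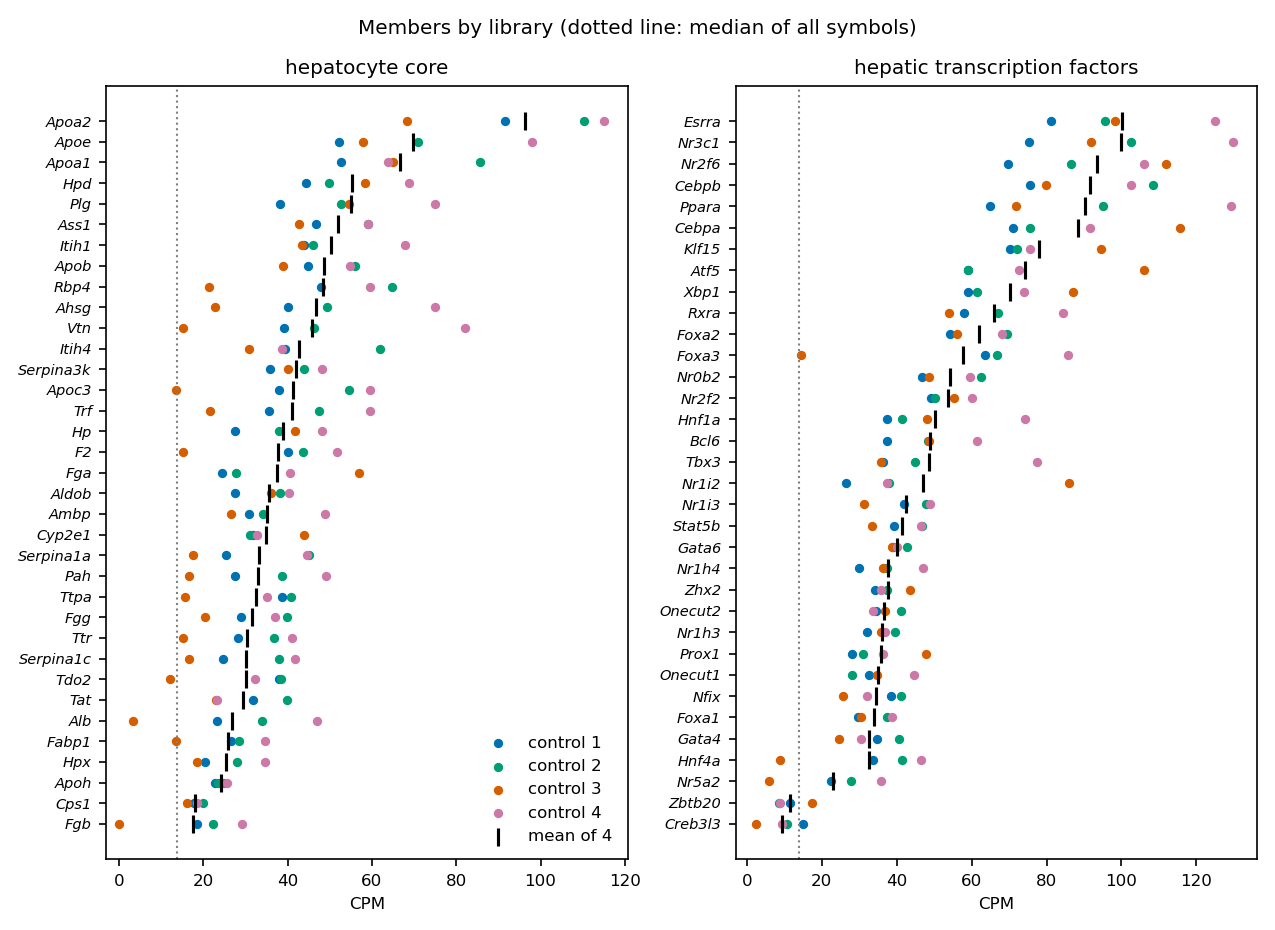
CPM (horizontal axis) of the 35 hepatocyte core genes (left) and 34 of the 35 hepatic transcription factors (right) in each control library (coloured points), with the mean of 4 as a bar and the median of all symbols as a dotted line. Apoa2 and Esrra lead, Alb at 3.38 CPM and Fgb at 0 in control 3 lie left of the line, and Zbtb20 and Creb3l3 are the factors with means below it.

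Promoters of hepatic transcription factors had a higher median than the hepatocyte core list in each library, but by a wide margin only in control 3. The factor median was 38.5, 44.8, 44.8 and 48.8 CPM (44.2 ± 4.25), with 15 of 35 (42.9%) in the highest 10%. The core median was 35.6, 40.8, 22.8 and 48.2 CPM. Nuclear receptors and C/EBP genes led. Esrra, a receptor of mitochondrial genes, had 81.2, 95.6, 98.4 and 125 CPM (100.1 ± 18.3), and Nr3c1, the glucocorticoid receptor gene, 75.3, 103, 91.8 and 130 CPM (99.9 ± 22.9). Ppara, the fatty acid receptor gene, had 65.0, 95.0, 71.8 and 129 CPM (90.3 ± 29.0). Cebpb and Cebpa had 91.5 ± 16.3 and 88.5 ± 20.2 CPM. Lower in the list was Hnf4a, a central hepatocyte factor, with 33.6, 41.4, 8.87 and 46.5 CPM (32.6 ± 16.7). Nr1i2, the gene of the pregnane X receptor, had 26.5, 38.0, 85.9 and 37.5 CPM (47.0 ± 26.5), highest in control 3. Foxa3 had 63.7, 66.7, 14.4 and 85.8 CPM, lowest in control 3. Only Zbtb20 (11.6 ± 4.03 CPM) and Creb3l3 (9.31 ± 5.12 CPM) lay below the median of all symbols.

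Metabolic lists formed a graded series. Gluconeogenesis and fasting genes had a median of 44.8, 54.9, 46.9 and 53.6 CPM (50.04 ± 4.96), with 11 of 22 in the highest 10%. The open end held Gpt (128 ± 43.8 CPM), Irs2, an insulin receptor substrate gene (106 ± 26.5), and Slc37a4, the glucose-6-phosphate transporter gene (91.4 ± 16.9). Pck1, the gene of the gluconeogenic enzyme PEPCK, had 87.2, 125, 39.3 and 107 CPM (89.6 ± 37.0). The gene of the last step, G6pc, had 24.2, 27.9, 4.22 and 27.4 CPM (20.9 ± 11.3), and the coactivator gene Ppargc1a 16.0 ± 8.84 CPM. Members of this mixed list thus spanned from the 53.8th to the 99.9th percentile.

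Cholesterol synthesis and uptake genes had a median of 40.6 ± 7.36 CPM (9 of 27 in the highest 10%), with Insig1, an inhibitor of SREBP processing, at 71.2 ± 25.4 CPM and the X-linked sterol isomerase gene Ebp lowest at 13.5 ± 6.38 CPM. Urea cycle and amino acid genes had 40.3 ± 9.07 CPM (9 of 30). Their lowest member was the X-linked Otc, with 7.29, 11.0, 0 and 10.1 CPM. Fatty acid oxidation genes had 33.2 ± 4.66 CPM (7 of 32), led by Acadm, the medium-chain acyl-CoA dehydrogenase gene (90.9 ± 24.8 CPM).

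Secreted defence proteins and detoxification enzymes were less open. Acute phase genes had a median of 24.98 ± 3.52 CPM (1 of 25 in the highest 10%), bile acid genes 23.3 ± 6.28 CPM (2 of 22), and coagulation and complement genes 22.6 ± 2.91 CPM (2 of 33). Cyp7a1, the rate-limiting enzyme of bile acid synthesis, had 10.7, 11.8, 7.18 and 13.4 CPM (10.8 ± 2.64). Drug metabolism genes had 14.5, 15.8, 10.3 and 17.6 CPM (14.6 ± 3.08), above all symbols in 2 of 4 libraries, with 3 of 56 in the highest and 4 in the lowest 10%. The open members were Ugt1a1, the bilirubin conjugating enzyme gene (84.3 ± 17.4 CPM), and Por, the electron donor of cytochromes P450 (76.8 ± 15.1 CPM). Cyp3a11 had 16.1, 16.5, 8.02 and 19.1 CPM (14.9 ± 4.79), and Cyp3a41a 2.11 ± 1.15 CPM. All 104 cytochrome P450 genes had a median of 11.0 ± 0.964 CPM, which was below all symbols in 3 of 4 libraries. The 22 major urinary protein genes, abundant products of male mouse liver, had 4.01 ± 2.29 CPM, with 7 in the lowest 10%. They are near-identical copies, so their values are uncertain. Mup3, the highest, had 19.9, 28.5, 12.7 and 29.5 CPM.

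The circadian clock list was the most open of the 47 classes, at 2.08 ± 0.40 above all symbols in log2(CPM + 1). Counted over every entry it was at 1.62, below RNA polymerase II and splicing genes at 1.83. Circadian clock genes had a median of 50.5, 62.3, 62.1 and 68.5 CPM (60.8 ± 7.50), with 16 of 21 (76.2%) in the highest 10%. Nr1d2 was followed by Bhlhe40 (120 ± 22.0 CPM), a clock repressor gene, and Tef (107 ± 19.6 CPM), a clock output factor gene. Immediate-early and stress genes had a median of 52.7 ± 5.14 CPM (19 of 37). Junb, an AP-1 subunit gene, had 91.2, 96.0, 127 and 139 CPM (113 ± 23.3), and Egr1, a zinc finger factor gene, 81.4, 91.5, 111 and 132 CPM (104 ± 22.2). Fos lay lower, at 45.1, 44.0, 18.6 and 34.5 CPM, and Egr3 (12.4 ± 6.29) and the heat shock gene Hspa1a (9.17 ± 5.50) lay at the bottom. Housekeeping lists had even, moderate values. The medians were 34.3 ± 4.04 CPM for RNA polymerase II and splicing genes, 31.6 ± 2.67 for cytoplasmic ribosomal proteins, 31.1 ± 2.31 for the proteasome and 28.05 ± 4.13 for the respiratory chain. Of 31 proteasome genes 0 were in the highest 10%, and 11 of 37 RNA polymerase II and splicing genes were.

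**Figure D3:**
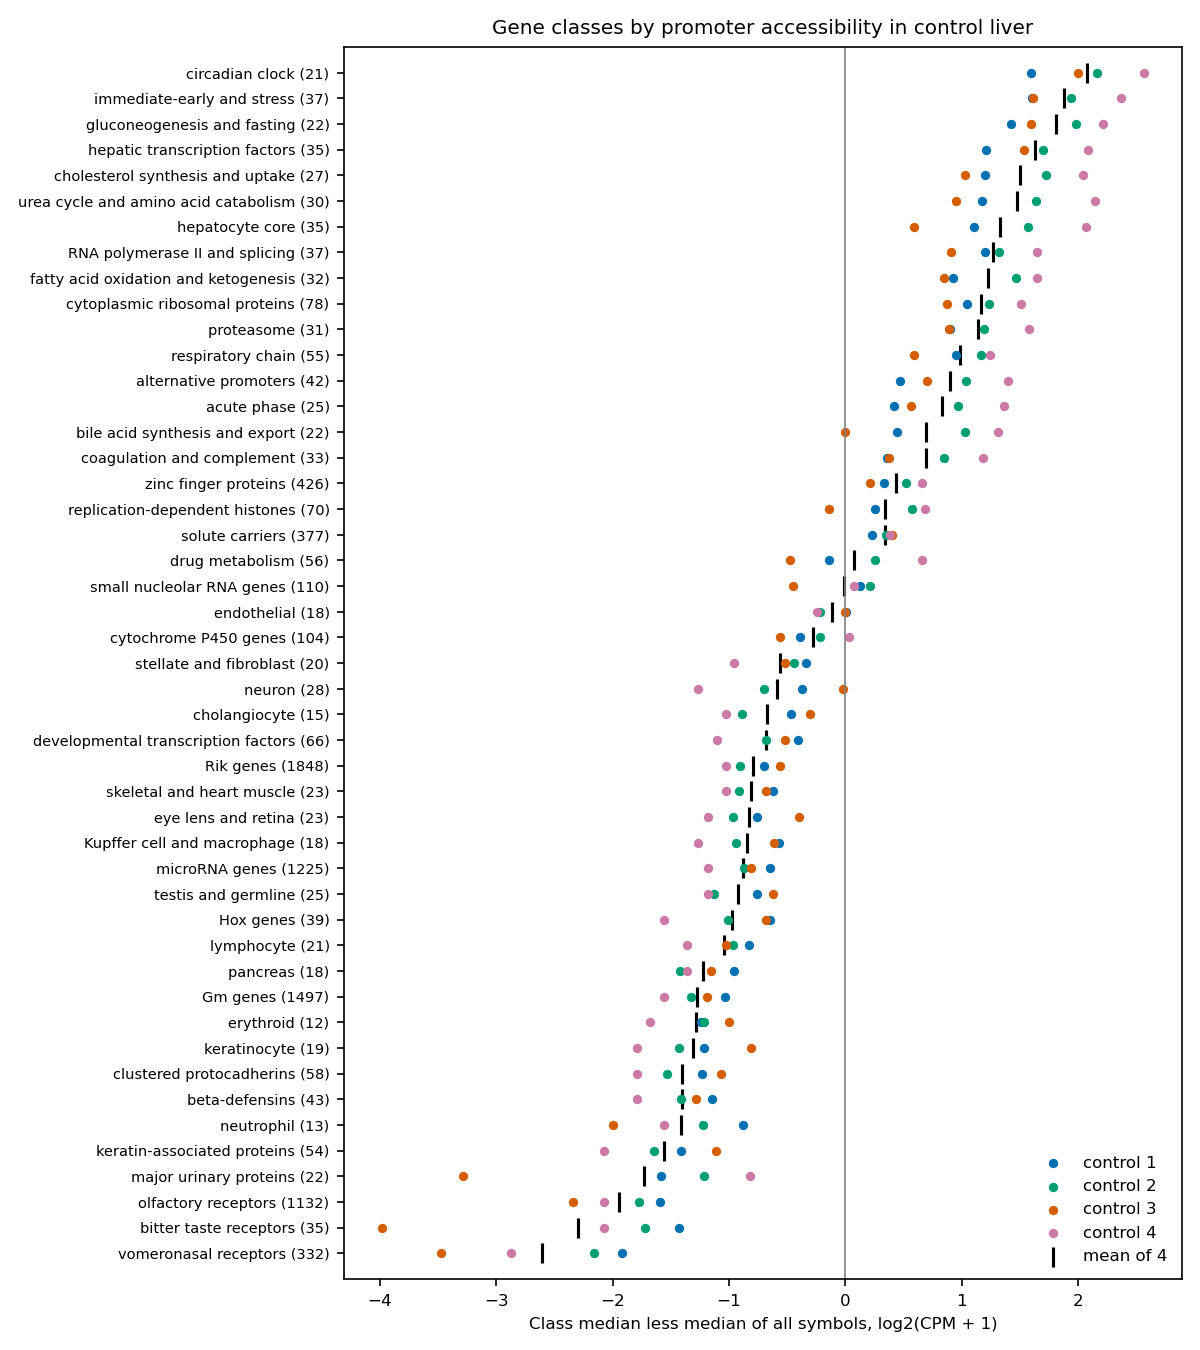
Median log2(CPM + 1) of each of 47 gene classes less the median of all symbols (horizontal axis), for each control library (coloured points) and as the mean of 4 (bar), with the number of measured members in brackets. Circadian clock genes are highest at 2.08 and vomeronasal receptors lowest, and 20 of 47 classes lie above 0 by their mean.

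Markers of the other cells of liver lay near or below the median of all symbols. Endothelial genes had a median of 12.7 ± 3.32 CPM, stellate cell and fibroblast genes 9.24 ± 3.09, cholangiocyte genes 8.64 ± 3.49, and Kupffer cell and macrophage genes 7.56 ± 3.04. Lymphocyte, erythroid and neutrophil markers had 6.29 ± 2.09, 5.23 ± 1.87 and 4.81 ± 2.51 CPM. Of the 117 genes of these 7 lists 0 were in the highest 10%. In bulk liver, fewer cells of a type and less open promoters per cell cannot be told apart. In the cholangiocyte list, Sox9, a gene of the biliary lineage, had 20.9, 22.5, 32.9 and 25.9 CPM (25.6 ± 5.35), and the biliary keratin gene Krt19 had 8.72, 4.07, 0 and 4.77 CPM. Ptprc, the pan-leukocyte marker CD45, had 6.34, 4.47, 4.22 and 2.98 CPM. Each reading was above the olfactory receptor median of its library, which was 4.67, 3.11, 2.11 and 1.79 CPM.

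Genes of tissues outside the liver had medians of 9.57 ± 4.76 CPM (neuron), 7.61 ± 3.01 (eye), 7.55 ± 2.39 (muscle), 6.99 ± 2.58 (testis), 5.44 ± 1.90 (pancreas) and 5.24 ± 2.46 (keratinocyte). A single gene of these lists was in the highest 10%, the fast-muscle myosin light chain gene Mylpf, with 66.5, 86.0, 48.1 and 114 CPM (78.7 ± 28.3). The developmental transcription factors (66) and Hox genes (39) had 8.54 ± 3.19 and 6.94 ± 3.12 CPM. Neither was as low as the receptor families of sensory tissue.

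Several clustered gene families were among the least open classes. Olfactory receptors had a median of 4.67, 3.11, 2.11 and 1.79 CPM (2.92 ± 1.30), and 535 of 1132 (47.3%) were in the lowest 10% and 0 in the highest. Vomeronasal receptors had 3.50, 2.16, 0.422 and 0.596 CPM (1.67 ± 1.45), with 233 of 332 (70.2%) in the lowest 10%, and bitter taste receptors 22 of 35 (62.9%). Clustered protocadherins (4.77 ± 1.99 CPM), beta-defensins (4.73 ± 1.85) and keratin-associated proteins (4.26 ± 2.02) were also low. The 2512 symbols of the lowest 10% were not confined to such families. Among them were 413 of 1497 Gm genes (27.6%), 201 of 1848 Rik genes (10.9%) and 157 of 1225 microRNA genes (12.8%). The olfactory receptor of highest mean, Olfr159, had 6.43, 4.31, 44.3 and 0 CPM, so its rank came from control 3 alone. Sensory receptor copies can share reads, and single values in these families are uncertain. Not every large family was closed: 426 zinc finger protein genes had a median of 18.7 ± 1.498 CPM (37 in the highest 10%), and 377 solute carriers 17.5 ± 2.49 CPM (43). The lowest solute carrier, the mitochondrial iron importer gene Slc25a37, had 0.143, 0.239, 0 and 0 CPM. Each reading was far below the olfactory receptor median of its library. Why was not tested, and the level of this promoter is uncertain.

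Open promoters were CpG-rich far more often than closed ones. Sequences were matched by gene, taking each gene's first sequence entry, which may not be that of its most open count entry. They were found for 16535 of 20657 NM protein-coding promoters (80.0%). Of these 7869 were CpG-rich, with at least 0.6 of the CG count that base composition gives and at least 50% G and C, and 8666 were CpG-poor. Their medians were 31.0 and 7.50 CPM. The difference in median log2(CPM + 1) was 1.64, 2.14, 1.67 and 2.63 in controls 1 to 4 (2.02 ± 0.47). CpG-rich promoters made up 47.6% of the set, 83.0% of its members in the highest 10% and 3.02% of those in the lowest 10%. Across promoters, which are not independent and share a library, Spearman's rho of CPM with the CG count was 0.672, 0.651, 0.565 and 0.612 (n = 16535).

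The relation was graded over the whole range. Promoters with 0 CG in the 300 bases had a median of 3.37 CPM (784), and 45.0% of them were in the lowest 10%. The median was 6.97 CPM at 3 to 5 CG, 18.5 CPM at 10 to 14 and 36.5 CPM at 30 to 99, where 26.1% were in the highest 10%. Exceptions ran both ways: 327 CpG-poor promoters were in the highest 10%, and 50 CpG-rich ones in the lowest 10%. Of the sequences printed above, Apoa1 is of the first kind, with 66.7 CPM and 4 CG. En1, with 4.85 CPM and 23 CG, lies above the 3.05 CPM edge of the lowest 10% and is not among the 50.

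**Figure D4:**
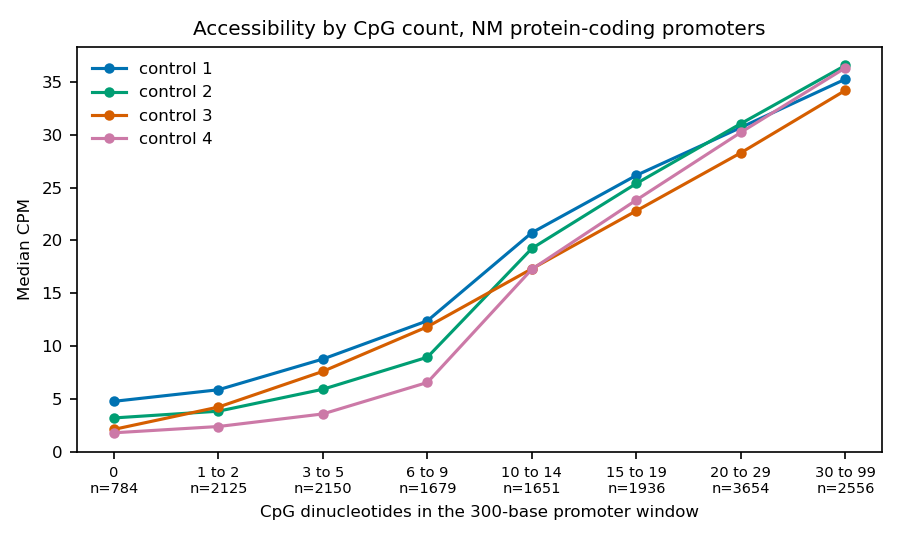
Median CPM (vertical axis) of NM protein-coding promoters by the number of CG dinucleotides in the 300-base window (horizontal axis, with the number of promoters n), 1 line per control library. All 4 lines rise from left to right, from between 1.79 and 4.76 CPM at 0 CG to above 34 CPM in the last class.

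Within lists the CpG classes did not always order accessibility. Circadian promoters were mostly CpG-rich (14 of 17 with a sequence, median 59.3 CPM), but the 3 CpG-poor ones had a median of 74.8 CPM. They were above the CpG-rich ones in controls 1, 2 and 4 and below them in control 3 (62.1 against 64.0 CPM). Immediate-early and stress promoters had medians of 52.8 CPM for 24 CpG-rich and 59.8 CPM for 7 CpG-poor, with the CpG-poor ones above in controls 2 and 4 only. Drug metabolism promoters were CpG-poor in 45 of 47 (median 14.9 CPM) and acute phase promoters in 20 of 22 (22.6 CPM), both above the 7.50 CPM of CpG-poor promoters at large. For the hepatocyte core only 25 of 35 promoters (71.4%) had a sequence, of which 24 were CpG-poor. That is under 80% of the list, so the check is void for it, and it is void for the developmental and Hox lists for the same reason.

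Short motifs, searched on both strands of the same 300 bases, followed the same division. The GC box GGGCGG, which SP and KLF factors bind and which itself holds a CG, was in 48.2% of the 16535 promoters, 78.7% of those in the highest 10% and 7.06% of those in the lowest 10%. Over all 32851 promoters of the table it was in 35.7%. Promoters with it had a median of 28.4 CPM and those without it 8.24 CPM. The ETS motif CCGGAAGT also marked more open promoters (28.6 against 15.7 CPM). The TATA box TATAAA did the reverse: it was in 13.2% of promoters (13.6% of all in the table), in 3.91% of the highest 10% and in 33.0% of the lowest 10%, with medians of 5.81 and 19.4 CPM. The CCAAT box differed little (17.1 against 16.8 CPM). A match is a description of letters and not a bound site.

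The half-site of the hepatocyte factor HNF1, GTTAAT, was in 6.27% of promoters (7.10% of all in the table) and in 9 of the 25 hepatocyte core promoters with a sequence. The motifs searched for FOXA, HNF4 and C/EBP were in 3, 0 and 0 of these 25, and in 2.91%, 0.435% and 0.224% of promoters. The 25 are 71.4% of the core list, under the 80% used above, so these counts may not hold for the list. The HNF1 half-site was chosen after the full palindrome gave no match. Across all promoters those with it were less open (7.65 against 17.7 CPM). GC-poor promoters were less open in general, with a Spearman's rho of CPM with the GC share of 0.537 to 0.617 across promoters. In Alb it starts 32 bases before the transcription start (chr5:90460830-90460851), and in Serpina1a, an α1-antitrypsin gene, 21 bases before it (chr12:103863627-103863648). Both stretches are shown with the motif in capitals, to place it close to the start.
Alb half-site: taagtatgGTTAATgatctaca
Serpina1a half-site: tgacattgGTTAATattcacta

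The X chromosome was the least open of the chromosomes other than Y. Autosomal medians of NM protein-coding promoters ranged from 11.7 CPM (chromosome 7) to 23.4 CPM (chromosome 8), and the X median was 4.13 CPM over 889 promoters, of which 375 (42.2%) were in the lowest 10% and 3 in the highest. The difference from autosomes in median log2(CPM + 1) was -1.68, -1.98, -1.93 and -1.998 in controls 1 to 4 (-1.90 ± 0.15). Male cells carry a single X and a pair of each autosome, so equal accessibility per copy would give a ratio of 0.5. Over all NM protein-coding promoters the ratio of the X to the autosomal median was 0.227 ± 0.034. Among CpG-rich promoters the ratio of the X to the autosomal median was 0.465 ± 0.077, from 15.5 and 31.6 CPM over 219 and 7650 promoters. The 6 X-linked genes of the housekeeping lists gave 0.442 ± 0.050 (15.1 against 31.9 CPM): Rpl10, Rpl39, Rpl36a, Rps4x, Ndufa1 and Cox7b. Over CpG-poor promoters the ratio was 0.277 ± 0.139, with the lowest value, 0.091, in control 3. The 6 X-linked olfactory receptors gave 0.906 ± 0.377, from low medians of 2.82 and 3.13 CPM. What sets these ratios was not tested. The 44 Y promoters had a median of 0.241 CPM, and most belong to multicopy families.

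**Figure D5:**
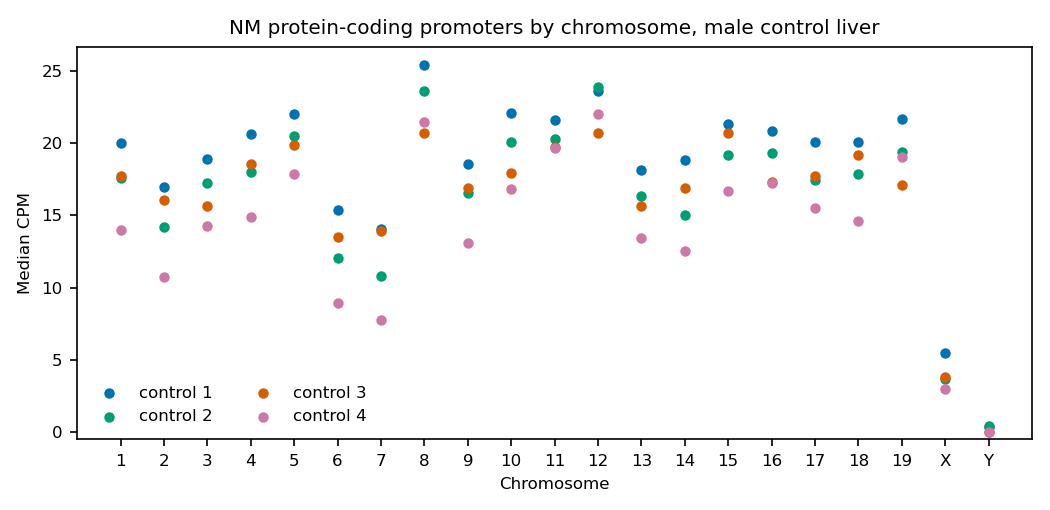
Median CPM (vertical axis) of NM protein-coding promoters on each chromosome (horizontal axis), 1 point per control library. The autosomes lie between 7 and 26 CPM, X between 2.98 and 5.43 CPM, and Y near 0 in every library.

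Alternative promoters of the same gene differed in accessibility for some liver genes. Of 42 listed genes, 26 had at least 2 entries with distinct counts. The difference between the highest and lowest entry, which is above 0 by the order of their means, had a median over genes of 0.38, 0.36, 0.87 and 0.63 log2(CPM + 1) in controls 1 to 4 (0.56 ± 0.24). In 11 genes the order was the same in all 4 libraries. Pcx, the pyruvate carboxylase gene, had 78.7 ± 14.1 CPM at NM_001162946 and 29.6 ± 10.1 CPM at NM_008797. In Nr3c1, 4 of 5 entries lay between 78.8 and 99.9 CPM, and NM_001361212 at 4.46 ± 2.57 CPM.

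Other genes had a less settled order. Hnf4a had 32.6 ± 16.7 CPM at NM_008261 and 19.7 ± 2.90 CPM at the other entry, but control 3 gave the opposite order (8.87 and 22.0 CPM). The same held for Lpin1, the lipin-1 gene, whose entries had 19.0 and 24.1 CPM in control 3 against means of 47.6 and 14.8 CPM. In the Ugt1a cluster, where first exons share a downstream body, Ugt1a1 had 94.8, 93.9, 58.5 and 90.2 CPM. The other 7 first exons measured had means from 5.61 to 17.1 CPM, and none reached the Ugt1a1 value in any library.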

How the data were processed

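ATAC-seq promoter counts of 4 control libraries were used, 43511 entries named by RefSeq transcript. The authors deposited expected counts in steps of 0.5, unnormalised, a unit read from the values. Trimmomatic, STAR 2.7.9a, bedtools 2.30.0, HOMER 4.10 and build mm10 are named per the submitters' processing notes, without roles. The promoter window, the counting and any filter are not given in the sources used here, so a common width, on which comparing promoters rests, was not tested. The enhancer table was not used here, and a few members are not reported here.

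Counts were not rounded. CPM used the library's promoter total, including 97 entries without a symbol (at most 0.173% of a library). Each symbol took its entry of highest mean, which favours genes with many entries. Ties went to NM. Annotation matched 42203 entries by accession. Log values used a pseudocount of 1 CPM. Classes (31 lists, 16 families) are described by medians, counts and SD over libraries, with no test. Members and lists were chosen with earlier results of these data known. Named genes were the 20 NM and 10 NR symbols of highest mean, ranks 21 to 25, the 3 highest and 2 lowest members per list, all hepatocyte core, factor and alternative-promoter genes, and the 5 most variable open NM symbols. Other genes named were chosen after their values were seen: Cyp3a11, Fos, Pck1 and Ptprc, and those with a printed sequence. Promoter sequences are RefSeq's, build GRCm38.p6.

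Alternatives were TMM scaling (edgeR 4.0.16, R 4.3.3), every entry, the lowest entry, at least 10 counts in 2 libraries, thinning, pseudocounts of 0.1 and 5 CPM, the median over libraries, identical entries counted once, percentiles, and each library left out. Genes with 1 sequence entry were added after seeing the data. Python 3.11.15 with pandas 2.3.3 and numpy 2.4.6 was used, and the class medians were tested on simulated data. The simulated levels lay well above the pseudocount, so that test does not cover the low levels of closed classes. Depth was 1679054 to 10493197 counts, so 1 count is worth 0.0953 to 0.596 CPM.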

Additional observations from a re-analysis of the deposited data

Results flagged for a closer look

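Of 119 values examined over the 4 libraries (main results, classes and named promoters), 5 had 1 library far from the other 3, where chance flags about 1 in 20 (5.95 of 119). In 3 of the 5 the library was control 3. Hjurp, a centromere chaperone gene, had 141 CPM in control 3 and 211 to 219 CPM in the others. A730008H23Rik had 136 CPM in control 3 and 210 to 218 CPM in the others, and its values lay within 10% of those of Hjurp in every library. Cyp2e1, an ethanol-metabolising P450 gene, had 43.9 CPM in control 3 and 31.1 to 32.8 CPM in the others. Mnt had 103 CPM in control 1 and 139 to 146 CPM in the others. Itih1, a plasma protein gene, had 67.9 CPM in control 4 and 43.5 to 46.1 CPM in the others.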

How the results depend on the processing

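Most main results are levels, shares, counts or differences ordered by their own means, so their sign was fixed. The others, NM less NR, CpG class and X less autosomes, did not change sign under any alternative that was run. Classes near 0 did: against all symbols, replication-dependent histones went from 0.34 to -0.03 over every entry, drug metabolism from 0.08 to -0.17 over every entry and to -0.12 without control 4 (about 0 with the count minimum), and small nucleolar RNA genes from -0.01 to 0.14 without control 3 and with the lowest entry. Of 90 values of the main results 81 stayed within a set margin, as did 536 of 564 class values and 1214 of 1235 values of named promoters. The margin was the SD between libraries where each library gives a value, and 5 points for percentiles of promoters. For the share at 0 it was an interval for counting error, and for the number of classes a fixed factor. Class percentiles only had to stay on the same side of the middle. X less autosomes (-1.90) was -1.46 with at least 10 counts in 2 libraries, -2.07 over every entry, and -2.12 and -1.32 with pseudocounts of 0.1 and 5 CPM. The share of symbols at 0 in all libraries (0.394%) was 0% with the count minimum, which removes them, 1.698% over every entry, 1.07% with the lowest entry and 0.577% after thinning. For the others, the cause was not tested. Leaving out each library in turn gave 0.394% to 0.657% at 0 (the latter without control 1), -1.95 to -1.87 for X, 1.82 to 2.15 for CpG class, 0.93 to 1.13 for NM less NR, 0.44 to 0.69 for alternative promoters, 5.19% to 5.88% and 31.2% to 34.4% of counts in the most open 1% and 10%, 12.9 to 14.6 CPM for the median promoter, and 19 to 21 classes above all symbols. Without control 3 the percentile of Alb was 77.5, and without control 4 it was 59.1, against 68.8. With genes of 1 sequence entry (13895) the CpG difference was 2.14 ± 0.46. Neither every entry nor the lowest entry gives a value for alternative promoters. No paired analysis was possible because there is only 1 group and no test. Depth limits the closed end: 3 counts are worth 0.286 CPM in control 1 and 1.79 CPM in control 4.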
